A study of Mus musculus with 21 samples.

Results

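The heat shock share is the percent of a cell's unique molecular identifiers (UMIs, here after ambient RNA correction) that come from heat shock protein genes. It was taken for every one of the 87822 cells of the series. The 83925 cells with a cell type label after integration with Harmony were grouped by that label, and a median was taken for each of 23 types in each sample with at least 10 cells of the type, which gave 423 medians. The other 3897 cells had no Harmony label. Which genes the authors counted as heat shock protein genes is not given in the sources used here, and the files hold no values of single genes, so the share was described as one quantity and the cell type labels could not be compared with marker genes.

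Single-cell RNA sequencing (scRNAseq) was performed on tibialis anterior muscle of 20-month-old female C57BL/6J mice, 1 mouse per sample. The muscle was left uninjured (4 mice) or injured with notexin, a snake venom toxin that destroys myofibers, and taken 1 (4 mice), 2 (3), 3.5 (4), 5 (3) or 7 (3) days post-injury (dpi). All mice were of the same strain, sex and age, none carried a transgene by the labels, and the comparison is with uninjured muscle of other mice. The muscle was digested with enzymes before loading, so every value describes cells after dissociation, including the myonuclei that a whole-cell preparation retains.

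Heat shock proteins are molecular chaperones. Members of the HSP70 and HSP90 families fold newly made or damaged proteins, the small heat shock proteins hold unfolded proteins in solution, and the DNAJ proteins pass clients to HSP70. The inducible members are transcribed by heat shock factor 1 when proteins unfold, and they are among the genes known to rise when tissue is warmed and digested into single cells. In muscle, chaperones also serve the folding and assembly of myosin and other sarcomere proteins.

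Samples held 974 to 10556 cells and 5.60e+06 to 7.07e+07 UMIs, with a median of 3115 to 14614 UMIs per cell. The heat shock share of single cells ran from 0 to 13.7%, with a median of 0.690%. It was 0 in 60 cells and above 5% in 195 cells (0.222%). No more than 32 barcodes, 0.418% of the smaller library, were shared by any of the 210 pairs of libraries. Libraries of one group could stand apart: replicate C was the lowest of its group in 15 of the 20 types measured in all 3 libraries at 2 dpi, in 20 of 21 at 5 dpi and in 21 of 23 at 7 dpi. These 3 libraries were picked for their low heat shock share, so values without them describe how far a result rests on them and support no difference. They also had the highest sequencing saturation of their groups (60.4, 62.9 and 71.1%).

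The types differed about 4-fold in their typical level. Over samples, the median was highest in myoblasts/progenitors (1.22%), arterial endothelial cells (1.09%), muscle stem cells (MuSCs, 1.03%), smooth muscle cells (0.986%) and capillary endothelial cells (0.956%). It was lowest in neutrophils (0.307%), short-lived phagocytes that enter injured tissue first, and in patrolling monocytes (0.556%). B cells (0.897%), NK cells (0.891%), T cells (0.860%) and dendritic cells (0.806%) followed the first group. Pro-remodeling fibro-adipogenic progenitors (FAPs, the connective tissue progenitors of muscle) were at 0.788%, type IIx myonuclei at 0.766%, type IIb myonuclei at 0.753% and venous endothelial cells at 0.743%. These 4 types lay in the middle of the order.

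The lower part of the order held inflammatory monocytes (0.719%), Cxcl10+ monocytes (0.715%), neural cells (0.711%) and stem FAPs (0.698%). Below them came M2 macrophages with low Cx3cr1 (0.683%) and high Cx3cr1 (0.674%), adipogenic FAPs (0.660%) and tenocytes (0.653%). Each of the 22 differences between neighbours in the order was smaller than 1 SD of that difference over samples. The order is thus a description, and it does not show which neighbours differ. The types were also measured in unlike sets of samples, so the order mixes type with time point. Myoblasts/progenitors were measured in 10 samples, all at 3.5 to 7 dpi, and arterial endothelial cells in 21. In the 10 shared samples myoblasts/progenitors were the higher in 5. A neutrophil held a median of 6.92 heat shock UMIs among 2077 UMIs, whereas a myoblast or progenitor held 167 among 15498. Within samples the order did not follow depth: Spearman's rho between the median UMIs and the heat shock share of the types had a median of -0.000565 over the 21 samples, with a range of -0.315 to 0.544.

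**Figure D1:**
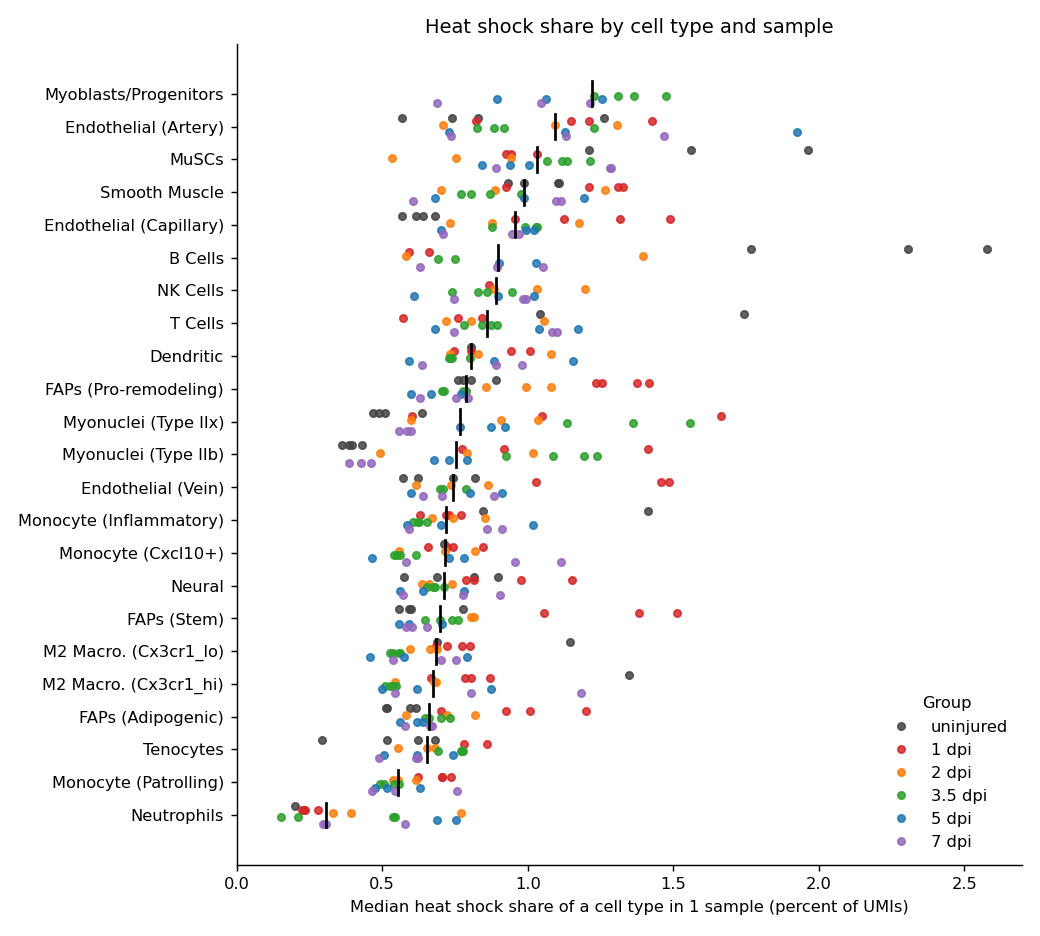
Median heat shock share of each cell type in each sample (horizontal axis, percent of UMIs; 1 point per sample with at least 10 cells, coloured by group), with the types in order of their median over samples (black bar). Neutrophils lie lowest with a median of 0.307%, and the uninjured B cells lie farthest to the right at 1.77% to 2.58%.

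To ask whether a type stood apart within a mouse, its median was compared with that of all other cells of the same sample (exact sign-flip test, two-sided). The labels came from clustering the expression of these cells, in which heat shock genes may have taken part, so the tests describe how even a difference was over mice. Of 23 types, 11 were higher than the other cells and 2 lower at an adjusted p under 0.05. The same test called 41.3% of the type tests higher and 32.6% lower for the other 6 deposited gene class shares (mitochondrial, ribosomal, transcription factor, long intergenic noncoding, antisense and protein coding), so such calls were common for any gene class.

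Myoblasts/progenitors, the dividing and committing muscle precursors, were 0.468 percentage points above the other cells (SD 0.260, n = 10) and higher in 10 of 10 samples (exact sign-flip test, adjusted p = 0.00408). B cells were 0.423 points above (SD 0.695, n = 14), in 11 of 14 samples (exact sign-flip test, adjusted p = 0.0404). MuSCs were 0.409 points above (SD 0.333, n = 19), in 18 of 19 (exact sign-flip test, adjusted p = 6.58e-05). The B cell difference had an SD larger than its mean, and the call was lost without any 1 of 8 libraries (exact sign-flip test, adjusted p up to 0.0808). B cells were at 2.22% in uninjured muscle, on 47 cells, and at 0.626% at 1 dpi. The call was also lost on a log2 scale (adjusted p = 0.0516) and with at least 20 cells (0.0691, exact sign-flip test). So it was with BBKNN (0.0699) or Scanorama labels (0.0730) and against the mean of the other types (0.180, adjusted p, exact sign-flip test). With the stricter cell filter defined below the difference was 0.0704 points (adjusted p = 0.268, exact sign-flip test). Arterial endothelial cells were 0.368 points above (SD 0.268, n = 21), in 21 of 21 samples, and smooth muscle cells 0.310 points above (SD 0.179, n = 21), in 20 of 21; both had an adjusted p of 2.19e-05 (exact sign-flip test). With Scanorama labels the smooth muscle difference turned to -0.0159 points (exact sign-flip test, adjusted p = 0.670). Only 18.5% of the Harmony smooth muscle cells carried that name under Scanorama, so the sets of cells differ.

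The 2 lower types were both myeloid. Neutrophils were 0.320 points below the other cells (difference -0.320, SD 0.230, n = 17), lower in 15 of 17 samples (exact sign-flip test, adjusted p = 0.000351), and patrolling monocytes 0.147 points below (difference -0.147, SD 0.0816, n = 17), lower in 17 of 17 (exact sign-flip test, adjusted p = 7.02e-05). With Scanorama labels the patrolling monocyte difference turned to 0.0481 points (exact sign-flip test, adjusted p = 0.872). Of the Harmony patrolling monocytes, 46.2% carried that name under Scanorama. Among the types that were not called, the differences were largest for type IIx myonuclei (0.170 points), stem FAPs (0.0817) and inflammatory monocytes (0.0689), with adjusted p of 0.103, 0.303 and 0.103 (exact sign-flip test). Because immune cells make up most of many injured samples, the reference moves with composition. Against the mean of the other types' medians instead, 6 types were higher and 7 lower.

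Over whole samples no change of the heat shock share with injury was called in the main test, which does not show that there was none. The median over all cells was 0.548, 0.667, 0.630 and 0.644% in uninjured replicates A to D, and 0.649, 0.787, 0.793 and 0.772% at 1 dpi. At 3.5 dpi the 4 samples lay between 0.591 and 0.632%, inside the uninjured range. The means at 2, 5 and 7 dpi were 0.674% ± 0.0573, 0.747% ± 0.139 and 0.751% ± 0.122 (SD, n = 3 each). The time points did not differ at p under 0.05 for all cells (permutation test of the F statistic, p = 0.0830, n = 21) or for the mean of 6 broad classes with equal weight (permutation test, p = 0.124). Without the 3 libraries named above the values were p = 0.00239 and p = 0.0419 (permutation test), which is no evidence of a time course, since leaving out low values of the tested measure narrows the spread within groups. With all samples kept, the equal-weight result still depended on the setting. Its p was 0.0234 with the stricter cell filter and 0.0230 with the replicate letter as a block (permutation test).

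Composition changed strongly over the same samples. Immune cells were 2.71% ± 0.694 of labelled cells in uninjured muscle (SD, n = 4), 65.9% ± 18.2 at 1 dpi (n = 4), 76.1% ± 4.80 at 3.5 dpi (n = 4) and 28.1% ± 3.06 at 7 dpi (n = 3). Among the non-immune cells alone the median heat shock share was 0.544, 0.658, 0.628 and 0.642% in uninjured replicates A to D and 1.33, 0.911, 1.06 and 1.20% at 1 dpi. The 4 samples at 1 dpi were all above the 4 uninjured ones. The mean was 0.895% ± 0.0394 at 3.5 dpi (SD, n = 4) and 0.724% ± 0.0970 at 7 dpi (SD, n = 3), and the time points differed (permutation test of the F statistic, p = 0.0002, n = 21). The immune cells alone had a median of 1.06% ± 0.270 in uninjured muscle (SD, n = 4) and 0.559% ± 0.0172 at 3.5 dpi (SD, n = 4), which was not tested as a class of its own.

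**Figure D2:**
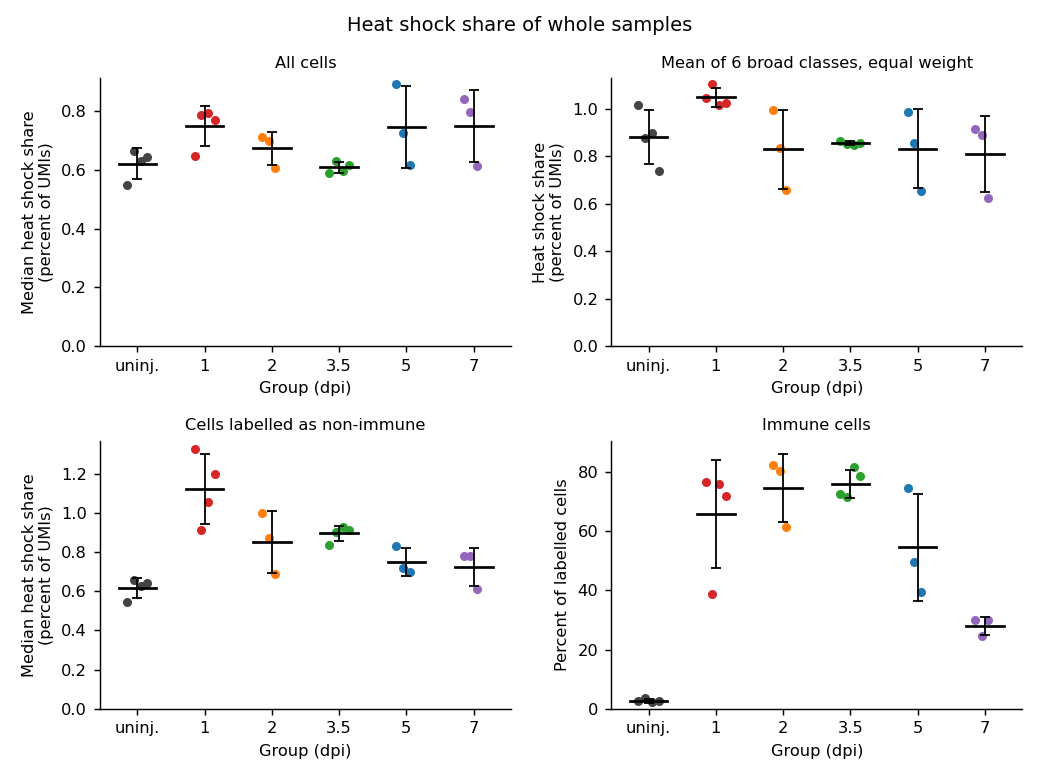
Heat shock share of whole samples by group (percent of UMIs; points are samples, black lines the mean and error bars the SD) for all cells, for the equal-weight mean of 6 broad classes and for non-immune cells, and the percent of labelled cells that are immune. The mean of non-immune cells is 0.618% in uninjured muscle and 1.12% at 1 dpi, while the immune percent goes from 2.71 to 65.9.

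The time course was then tested in each type (permutation test of the F statistic over time points, Benjamini-Hochberg adjustment over 23 types). It was called in 9 of 23 types (39.1%), and for the other 6 gene class shares in 52.9% of such tests, so the heat shock share was called no more often than other shares of the same cells. By group mean, FAPs and 2 endothelial types were highest at 1 dpi, myonuclei at 3.5 dpi, and MuSCs and B cells in uninjured muscle. In both myonuclear types the samples at 1 and 3.5 dpi overlapped, so which of the 2 time points was higher is not shown.

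Pro-remodeling FAPs, which build and remodel matrix after injury, changed most evenly. Their medians were 0.762, 0.805, 0.776 and 0.891% in uninjured replicates A to D, and 1.42, 1.25, 1.23 and 1.38% at 1 dpi. The samples at 1 dpi were all above every other sample of this type. The level was 0.976% ± 0.113 at 2 dpi (SD, n = 3), 0.746% ± 0.0431 at 3.5 dpi (n = 4), 0.679% ± 0.0869 at 5 dpi (n = 3) and 0.726% ± 0.0870 at 7 dpi (n = 3), with an adjusted p of 0.00023 (permutation test; the unadjusted 1e-05 is the smallest that the resamples can give). These cells held a median of 5877 UMIs in uninjured and 16069 in injured samples, and whether depth had a part in the difference was not tested.

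Stem FAPs, the less differentiated FAP pool, were at 0.779, 0.593, 0.558 and 0.600% in uninjured muscle and at 1.51, 1.05 and 1.38% in replicates A, C and D at 1 dpi. Those 3 samples were above every other sample, and the 2 at 2 dpi lay at 0.807 and 0.814% (permutation test, adjusted p = 0.00638). Adipogenic FAPs went from 0.560% ± 0.0530 in uninjured muscle (SD, n = 4) to 0.959% ± 0.206 at 1 dpi (SD, n = 4) and 0.637% ± 0.0523 at 7 dpi (SD, n = 3), with an adjusted p of 0.0142 (permutation test). The adipogenic call was lost with the mean over cells (adjusted p = 0.0719), BBKNN labels (0.0682) and Scanorama labels (0.0772, permutation test). With Harmony labels the 4 samples at 1 dpi, at 0.702 to 1.20%, did not overlap the uninjured ones at 0.513 to 0.617%. At 5 dpi the means were 0.679% in pro-remodeling, 0.619% in stem and 0.608% in adipogenic FAPs, beside 0.808, 0.632 and 0.560% in uninjured muscle.

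Capillary endothelial cells, which line the smallest vessels, were at 0.567, 0.681, 0.615 and 0.641% in uninjured replicates A to D. At 1 dpi they were at 1.49, 0.956, 1.32 and 1.12%, and at 7 dpi at 0.971, 0.947 and 0.708%. Every one of the 17 injured samples was above all 4 uninjured ones, and the time course had an adjusted p of 0.0142 (permutation test). The call was lost with the mean over cells (adjusted p = 0.0994), the pooled share of UMIs (0.0943) and the stricter filter on cells (at least 2000 UMIs and 1000 genes and at most 15% mitochondrial; 0.0922, permutation test). Venous endothelial cells were at 0.689% ± 0.112 in uninjured muscle (SD, n = 4) and 1.32% ± 0.256 at 1 dpi (SD, n = 3), and at 2 to 7 dpi their means were between 0.732 and 0.771% (permutation test, adjusted p = 0.0142). This was a rise at 1 time point, on 38 to 182 cells per group. The venous call was lost with at least 20 cells per sample (adjusted p = 0.830), with BBKNN labels (0.939), with the stricter filter (0.101) and without the 3 libraries named above (0.0533, permutation test). Arterial endothelial cells showed no such course: their mean was lowest in uninjured muscle (0.849% ± 0.296, SD, n = 4) and highest at 5 dpi (1.26% ± 0.609, SD, n = 3), with an adjusted p of 0.700 (permutation test).

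Type IIb myonuclei belong to the fastest glycolytic fibers. Their medians were 0.397, 0.360, 0.384 and 0.430% in uninjured replicates A to D. At 1 dpi they were 0.776, 0.918 and 1.41% in replicates A, B and D, and at 3.5 dpi 0.925, 1.09, 1.24 and 1.19% in A to D. The uninjured samples did not overlap those of either time point, and at 7 dpi the samples were back at 0.428, 0.462 and 0.387% (permutation test, adjusted p = 0.00414). Type IIx myonuclei, of the fast fibers that are more oxidative, were at 0.525% ± 0.0769 in uninjured muscle (SD, n = 4). Their level was 1.11% ± 0.533 at 1 dpi (SD, n = 3, range 0.603 to 1.66%) and 0.847% ± 0.223 at 2 dpi (SD, n = 3). It was 1.35% ± 0.212 at 3.5 dpi (SD, n = 3) and 0.580% ± 0.0206 at 7 dpi (SD, n = 3), with an adjusted p of 0.0330 (permutation test). Without uninjured replicate A, B or C or 3.5 dpi replicate A or B this call was lost, and so it was without the 3 low libraries (permutation test, adjusted p = 0.0547 to 0.0810). It was also lost with at least 5 cells (0.0618), at least 20 cells (0.0984) and the stricter filter (0.153, adjusted p, permutation test). Myonuclei are shallow here: type IIb held a median of 2480 UMIs in uninjured and 2025 in injured samples, of which 8.96% and 0.619% were mitochondrial.

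MuSCs, the stem cells that rebuild fibers, went the other way. They were at 1.56, 1.21 and 1.96% in uninjured replicates A to C, at 0.925, 0.941 and 1.03% in 1 dpi replicates A, C and D, and at 0.944, 0.754 and 0.535% in 2 dpi replicates A to C. The uninjured samples were above those of both time points. At 3.5 dpi the level was 1.13% ± 0.0615 (SD, n = 4) and at 7 dpi 1.15% ± 0.228 (SD, n = 3), so that the course was lowest at 2 dpi (permutation test, adjusted p = 0.00638). Depth also differed between the time points. MuSCs held a median of 5450 UMIs in uninjured muscle, 1639 at 1 dpi and 1774 at 2 dpi. The median was 15142 UMIs at 3.5 dpi, 10256 at 5 dpi (heat shock share 0.930%) and 9623 at 7 dpi. Mean mitochondrial shares from uninjured muscle to 7 dpi were 17.7, 8.27, 17.7, 11.6, 12.2 and 10.1%. With the stricter filter on cells the call was lost (adjusted p = 0.470, permutation test), and the part of depth in the course was not tested. B cells were at 2.31, 1.77 and 2.58% in uninjured replicates A to C, on 47 cells in all, and at 0.661 and 0.591% in 1 dpi replicates C and D. The uninjured values were above all 11 injured ones (permutation test, adjusted p = 0.0330), and leaving out uninjured replicate A, B or C or 1 dpi replicate C or D took away the call (permutation test, adjusted p = 0.0534 to 0.0947). The B cell call was also lost with the mean over cells (0.0986), the pooled share (0.0666), the stricter filter (0.609), at least 5 cells (0.107), BBKNN labels (0.103) and Scanorama labels (0.0772, adjusted p, permutation test).

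Among the types not called, the largest ranges between group means were those of T cells (0.670 points), inflammatory monocytes (0.501) and neutrophils (0.480), each with an adjusted p of 0.10 (permutation test). T cells and inflammatory monocytes were highest in uninjured muscle, and neutrophils at 5 dpi. Inflammatory monocytes were called with the mean over cells (adjusted p = 0.0395), BBKNN labels (0.0104) and Scanorama labels (0.0174, permutation test).

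**Figure D3:**
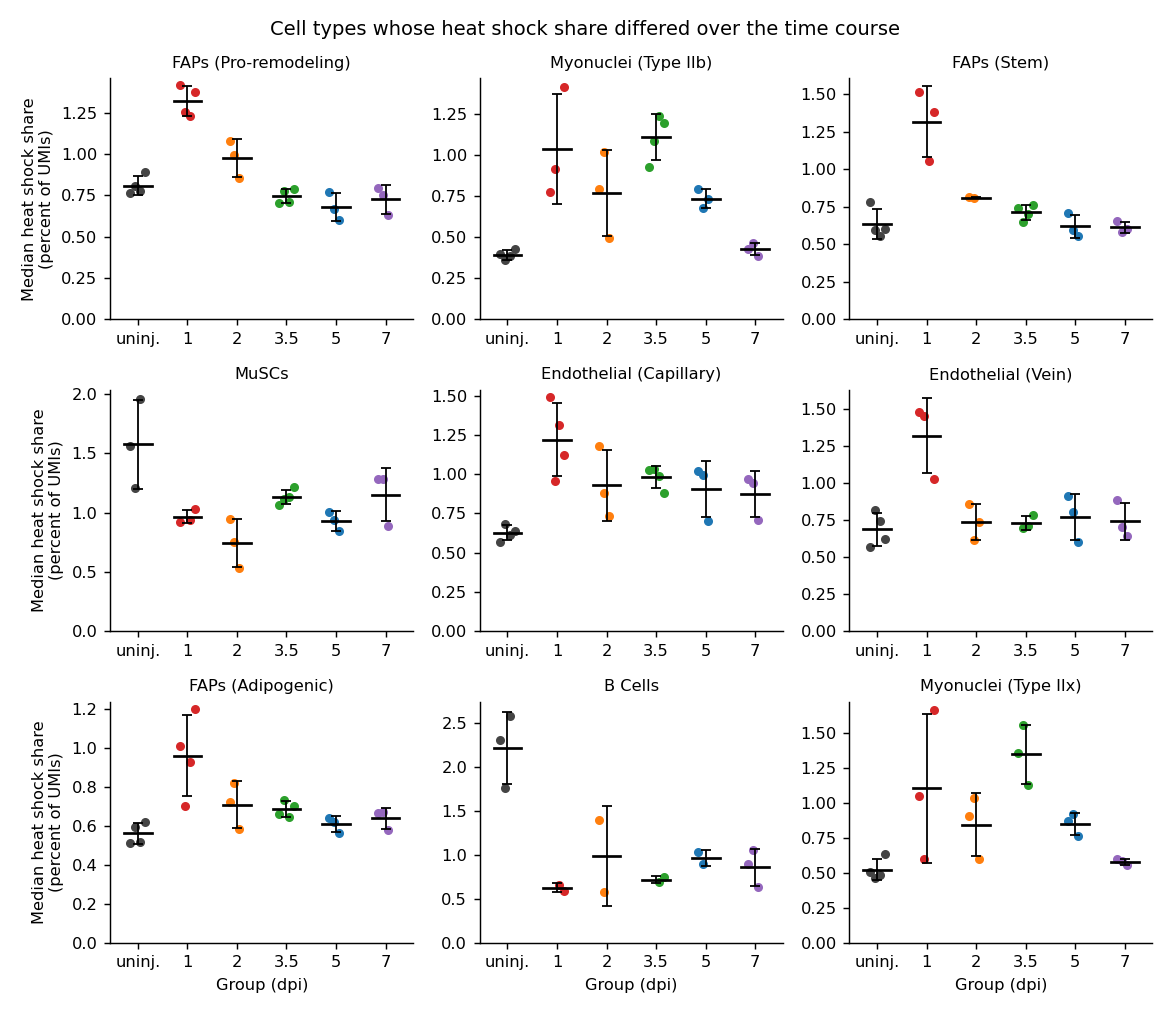
Median heat shock share (percent of UMIs, vertical axes from 0) by group in the 9 types whose time course was called; points are samples, black lines the mean and error bars the SD. FAPs and endothelial types peak at 1 dpi, and MuSCs and B cells are highest in uninjured muscle (1.58% and 2.22%). Myonuclei have their highest mean at 3.5 dpi (type IIb 1.11%, type IIx 1.35%), with samples that overlap those at 1 dpi.

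All injured samples together were compared with the uninjured ones in the 13 types with at least 3 uninjured samples (exact permutation test, two-sided). 2 types were higher (15.4%; 7.69% for the other 6 gene class shares) and 2 lower (15.4%; 20.5% for the other shares). Capillary endothelial cells were at 0.997% ± 0.205 in injured (SD, n = 17) and 0.626% ± 0.0480 in uninjured muscle (SD, n = 4), a difference of 0.371 points (exact permutation test, adjusted p = 0.0179). Type IIb myonuclei were at 0.833% ± 0.306 (SD, n = 16) and 0.393% ± 0.0291 (SD, n = 4), a difference of 0.440 points (exact permutation test, adjusted p = 0.0315), with 14 of 16 injured samples above all uninjured ones. Both calls rest on the few uninjured samples. The type IIb call was lost without any 1 of the 4 uninjured samples (adjusted p = 0.0570 to 0.131), with at least 5 (0.0644) or 20 cells (0.0516), with the stricter filter (0.0961) and without the 2 samples over 100000 reads per cell (0.0688, exact permutation test). The capillary call was lost without uninjured replicate A (0.114), B (0.0579) or C (0.0965), with the pooled share (0.0652) and with the stricter filter (0.0961, adjusted p, exact permutation test).

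MuSCs were at 0.994% ± 0.195 in injured (SD, n = 16) and 1.58% ± 0.377 in uninjured muscle (SD, n = 3), a difference of -0.583 points, with 13 of 16 injured samples below all uninjured ones (exact permutation test, adjusted p = 0.0179). B cells were at 0.834% ± 0.251 (SD, n = 11) and 2.22% ± 0.414 (SD, n = 3), a difference of -1.38 points (exact permutation test, adjusted p = 0.0179). With the mean over cells the MuSC difference was -1.11 points and with the pooled share -1.19, and with the stricter filter neither type had enough uninjured samples to test. The falls were thus in the types with only 3 uninjured samples, and the rises in types with 4. The largest differences among the others were in type IIx myonuclei (0.423 points, adjusted p = 0.0678; 0.499 points and 0.0357 without the 3 low libraries), arterial endothelial cells (0.251, adjusted p = 0.277) and stem FAPs (0.175, adjusted p = 0.280, exact permutation test).

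The mitochondrial share moved with injury in the same cells and is part of the denominator. It was lower in injured samples in all 13 of these types at an adjusted p under 0.05 (exact permutation test). In capillary endothelial cells it was 19.0% in uninjured and 7.23% in injured samples, and in MuSCs 15.6% and 11.3% (medians over samples). With UMIs that are not mitochondrial as the denominator, the difference was 0.315 points in capillary endothelial cells and 0.415 in type IIb myonuclei, and -0.779 in MuSCs and -1.90 in B cells, and all 4 were still called. Whether the mitochondrial share had a part in the differences in any other way was not tested.

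Each time point was also compared with uninjured muscle in all cells and in 6 broad classes. None of the 35 comparisons was called after adjustment and 9 had an unadjusted p under 0.05 (exact permutation test), which was in each case 0.0286, the smallest that 4 against 4 or 3 samples allow. In these 9 the samples did not overlap; for the other 6 gene class shares, samples did not overlap in 34.3% of such comparisons. With 0.0286 as the smallest p, adjustment over 35 comparisons can call any of them only if most reach that value. The lack of calls therefore shows little. The comparisons share the uninjured mice. Endothelial cells were higher at 1 dpi by 0.583 points and at 3.5 dpi by 0.305, and FAPs and tenocytes were higher at 1 dpi by 0.502 and at 3.5 dpi by 0.0594. The sign of the last value depended on how cells were averaged, since it was -0.0750 with the mean over cells and -0.0707 with the pooled share of UMIs. Lymphocytes differed at 3.5 dpi by -0.851 points, and by -0.803 at 2 dpi and -0.771 at 5 dpi, where samples overlapped the uninjured ones (adjusted p = 0.188 and 0.211, exact permutation test).

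Myogenic cells were higher by 0.501 points at 1 dpi and 0.304 points at 2 dpi. The difference was 0.736 points at 3.5 dpi and 0.422 points at 5 dpi. This class joins MuSCs, which fell, with myonuclei, which rose, and its makeup changed: myonuclei were 86.4% ± 12.2 of it in uninjured muscle (SD, n = 4) and 27.0% ± 20.7 at 3.5 dpi (SD, n = 4). The class value therefore holds both a change within types and a change of makeup.

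Whether classes differed in their time course was tested on the difference between each class and the endothelial cells of the same sample (permutation test of the F statistic). 4 of 5 classes differed from endothelial cells in their course, against 33.3% for the other gene class shares. The 5 tests share the endothelial reference, which itself went from 0.645% in uninjured muscle to 1.23% at 1 dpi. They are thus not independent, and a called difference does not show that the other class changed. Myeloid cells were 0.142 points above endothelial cells in uninjured muscle and at -0.556, -0.286, -0.400, -0.264 and -0.142 points at 1, 2, 3.5, 5 and 7 dpi (adjusted p = 0.0016, permutation test). The uninjured myeloid level rests on 211 cells. No uninjured sample had 10 patrolling monocytes, and only 1 had 10 neutrophils (14 cells). At 1 dpi the class held 8146 cells, among them 1558 neutrophils (0.242%) and 1333 patrolling monocytes (0.692%). The part of makeup in the myeloid course was not tested. Smooth muscle cells were 0.387 points above endothelial cells in uninjured muscle and between -0.0945 and 0.0588 points from them after injury (adjusted p = 0.0064, permutation test). The time course of smooth muscle cells alone was not called (adjusted p = 0.384, permutation test), with means from 0.855% at 3.5 dpi to 1.19% at 1 dpi.

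Myogenic cells were below endothelial cells in uninjured muscle (-0.165 points) and at 1 dpi (-0.246), and above them at 3.5 dpi (0.267; adjusted p = 0.0209, permutation test). That call was lost with the mean over cells (adjusted p = 0.403), with the pooled share (0.189) and without 3.5 dpi replicate D (0.0563, permutation test). Lymphocytes were 1.04 points above in uninjured muscle and between -0.181 and 0.0804 points after injury (adjusted p = 0.0305, permutation test). The uninjured level rests on 105 cells in 4 samples, and 47 of them were B cells in the 3 samples with at least 10 B cells. At 3.5 dpi the class held 768 cells, with 73 B cells in the 2 such samples. The part of makeup in the lymphocyte course was not tested. The lymphocyte call was lost without uninjured replicate A (adjusted p = 0.136), B (0.0510) or C (0.0954, permutation test). Leaving out 3.5 dpi replicate D (0.0529) or the 3 low libraries (0.0768, adjusted p, permutation test) also took it away. FAPs and tenocytes went from 0.0191 points above to -0.273 at 5 dpi, with an adjusted p of 0.0590 (permutation test). Without the 3 low libraries that course was called (permutation test, adjusted p = 0.0456).

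**Figure D4:**
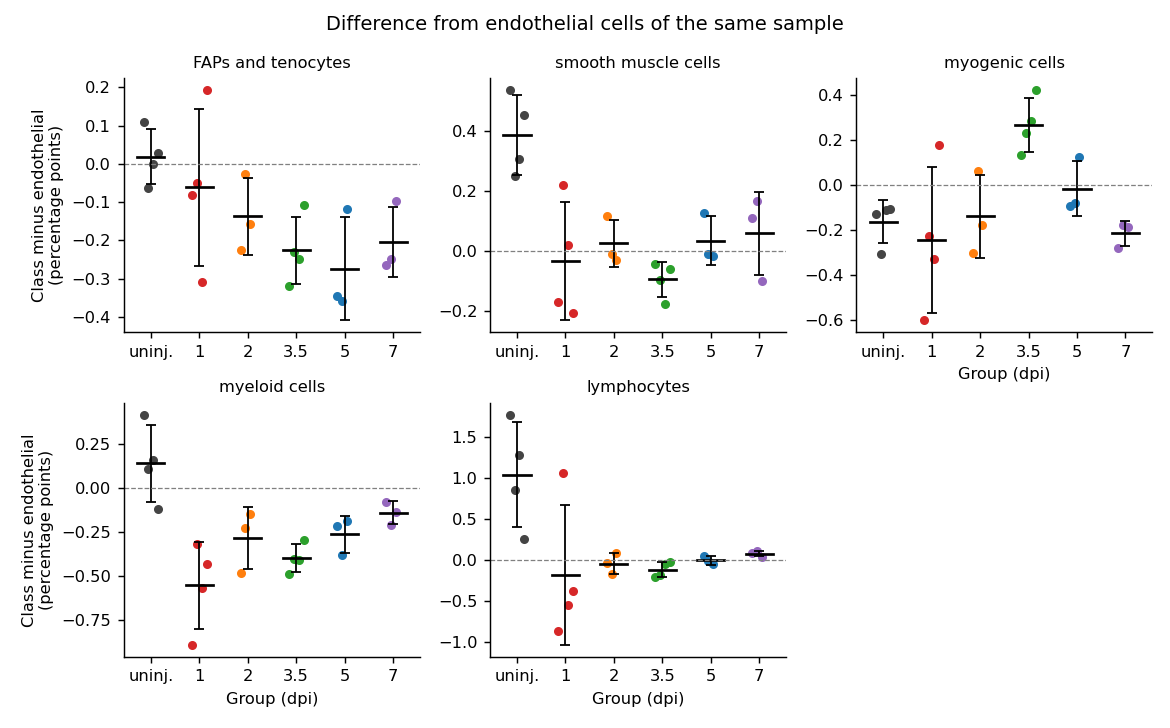
Difference in median heat shock share between each class and the endothelial cells of the same sample (percentage points), by group; points are samples, black lines the mean, error bars the SD and the dashed line no difference. Myeloid cells go from 0.142 in uninjured muscle to -0.556 at 1 dpi, and myogenic cells lie at 0.267 at 3.5 dpi.

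Along the myogenic path the states assigned by the authors (deconIDs) were compared within samples: quiescent and activated MuSCs, committed myoblasts, fusing myocytes, and type IIb and IIx myonuclei. Type IIb myonuclei were on average lower than each of the 4 earlier states, and no pair among those 4 states was called. Over the samples with each state, quiescent MuSCs ranged from 0.860 to 1.86%, activated MuSCs from 0.804 to 1.36%, committed myoblasts from 0.970 to 1.66% and fusing myocytes from 0.361 to 1.61%. At 3.5 dpi fusing myocytes were at 1.49, 1.44, 1.54 and 1.61% in replicates A to D, and activated MuSCs at 1.25, 1.19, 1.25 and 1.30%. Over all 9 samples with both states, fusing myocytes were higher in 5 and lower in 4 (difference 0.0667 points, SD 0.242, exact sign-flip test, adjusted p = 0.487). The single uninjured sample with fusing myocytes gave 0.361%, on 10 cells with a median of 1756 UMIs and 19.5% mitochondrial. At 3.5, 5 and 7 dpi fusing myocytes held medians of 40620, 13243 and 9487 UMIs. That sample is 1 of 10 in the comparison of fusing myocytes with quiescent MuSCs (0.0187 points, SD 0.471, exact sign-flip test, adjusted p = 0.928).

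5 of 15 pairs of states differed (exact sign-flip test, adjusted p under 0.05), against 76.7% of such pairs for the other gene class shares. Type IIb myonuclei were lower than quiescent MuSCs in 12 of 13 samples (difference -0.489 points, SD 0.476, exact sign-flip test, adjusted p = 0.0110). They were lower than activated MuSCs in 10 of 10 (-0.367, SD 0.319; adjusted p = 0.0146, exact sign-flip test), than committed myoblasts in 8 of 8 (-0.451, SD 0.285; adjusted p = 0.0234, exact sign-flip test) and than fusing myocytes in 9 of 10 (-0.382, SD 0.228; adjusted p = 0.0146, exact sign-flip test). By group means, the gap from the MuSC states was smaller at 3.5 dpi than at 7 dpi, which was not tested. At 3.5 dpi type IIb myonuclei were at 1.12% ± 0.135, quiescent MuSCs at 1.18% ± 0.0291 and activated MuSCs at 1.25% ± 0.0448 (SD, n = 4 each). At 7 dpi these means were 0.425% ± 0.0368, 1.16% ± 0.216 and 1.17% ± 0.317 (SD, n = 3 each). Type IIx myonuclei were above type IIb in 17 of 19 samples, by 0.135 points (SD 0.172, exact sign-flip test, adjusted p = 0.0146). With the stricter filter this difference was 0.0429 points (adjusted p = 0.451) and with at least 5 cells 0.107 points (0.0732, exact sign-flip test). The difference of type IIb myonuclei from quiescent MuSCs was also lost with at least 5 cells (-0.327 points, adjusted p = 0.0732), and that from committed myoblasts with the stricter filter (-0.503 points, 0.0750, exact sign-flip test).

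The largest differences among the other pairs were those of type IIx myonuclei from quiescent MuSCs (-0.368 points, adjusted p = 0.0670), committed myoblasts (-0.307, adjusted p = 0.117) and activated MuSCs (-0.218, adjusted p = 0.160, exact sign-flip test). Activated MuSCs were above quiescent MuSCs in 9 of 10 samples by 0.0627 points (SD 0.0923, exact sign-flip test, adjusted p = 0.0814). Committed myoblasts were above quiescent MuSCs in 7 of 8, by 0.164 points (SD 0.164, exact sign-flip test, adjusted p = 0.0670).

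**Figure D5:**
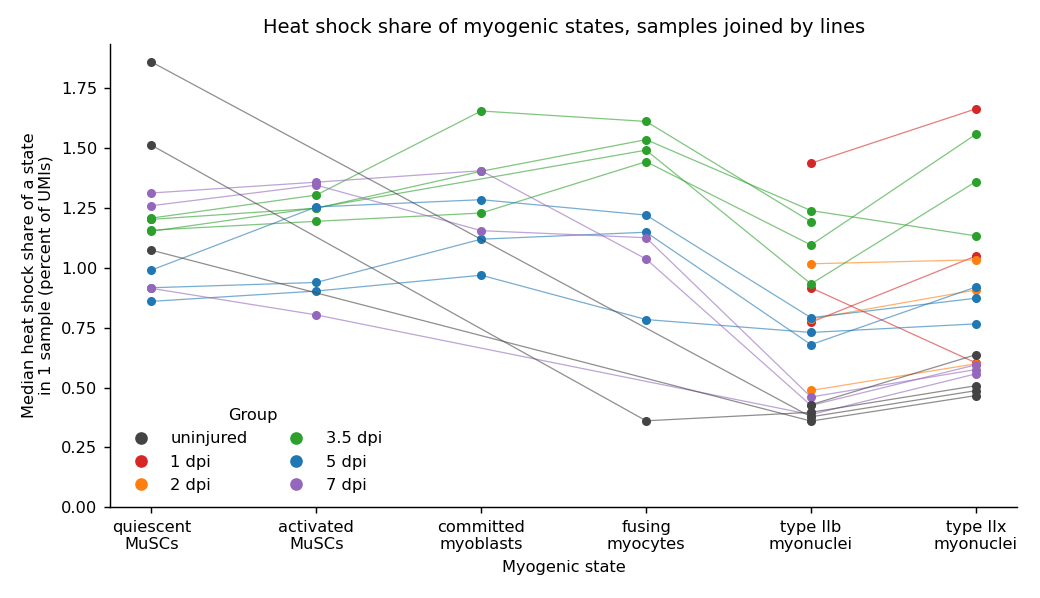
Median heat shock share (percent of UMIs) of each myogenic state; points are samples with at least 10 cells of the state, coloured by group and joined by lines within a sample. Type IIb myonuclei lie at 0.360 to 0.429% in uninjured and 0.387 to 0.461% in 7 dpi samples. They lie at 0.773 to 1.44% at 1 dpi and 0.933 to 1.24% at 3.5 dpi. Fusing myocytes at 3.5 dpi lie at 1.44 to 1.61%.

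Across the 21 samples, no relation of the all-cell median to depth or quality was called, which does not show that there was none. Of 10 correlations (5 measures, Pearson's r and Spearman's rho, permutation test) 0 had an unadjusted p under 0.05. The largest was with the ambient RNA fraction estimated by SoupX (r = 0.365, p = 0.104; rho = 0.416, p = 0.0618; both adjusted p = 0.446, permutation test), and without the 2 samples farthest from its median r was 0.207. After subtracting each time point's mean, r was 0.427 for SoupX and -0.489 for sequencing saturation (-0.215 before), and within the 17 injured samples r was -0.511 for the median UMIs per cell; these 3 values were not tested. For the median mitochondrial percent r was -0.280 (p = 0.225) and rho -0.125 (p = 0.589), adjusted p = 0.446 and 0.589 (permutation test), and for the median UMIs per cell r was -0.229 (p = 0.318) and rho -0.252 (p = 0.270), both adjusted p = 0.446 (permutation test). Without the 2 farthest samples these r were -0.292 and -0.0480.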

How the data were processed

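Single cells of 21 samples were captured with 10x Chromium. Per the labels the authors used Cell Ranger 3.1.0 and Seurat 3.1.5 with the mm10 build, SoupX for ambient RNA and DoubletFinder, and all deposited cells were singlets. The deposited percent values (heat shock, mitochondrial and other gene classes) are percents of a cell's corrected UMIs, by the authors. The deposited UMIs per cell are expected counts, since ambient subtraction leaves values that are not whole. The authors also gave reads per cell as counts and the SoupX contamination as a fraction. Harmony labels were used; the BBKNN and Scanorama label sets gave the same name in 61.8% and 41.3% of cells.

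Medians per sample and type (at least 10 cells) were tested over samples in Python 3.11.15 (scipy 1.17.1, pandas 2.3.3, numpy 2.4.6). Time courses were tested by permutation of the F statistic (100000 resamples), injured against uninjured samples by exact permutation, and differences within samples by exact sign flips, all two-sided with Benjamini-Hochberg adjustment and a threshold of 0.05. The tests were checked on simulated data. In each test the text names the types past the threshold (up to 5 in each direction, by size) and the 3 with the largest difference among the others. The types, classes and tests were chosen with earlier results of these data known. Alternatives were the mean or pooled share, a log2 scale (pseudocount 0.1), other minimums of cells, a stricter cell filter, other label sets, a replicate block and leaving out each sample; the alternative denominator and the sets of samples left out together were added after seeing the data.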

Additional observations from a re-analysis of the deposited data

Results flagged for a closer look

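Among 71 groups of 4 samples, 5 held a sample far from the others, where chance gives about 1 in 20. The all-cell median of 1 dpi replicate A was 0.649%, below the other samples at 0.772 to 0.793%. In FAPs and tenocytes uninjured replicate C was lowest at 0.626%, with the others at 0.673 to 0.681%. The lymphocytes of 1 dpi replicate B were highest at 2.05%, with the others at 0.616 to 0.760%. Dendritic cells of 3.5 dpi replicate C were highest at 0.801%, with the others at 0.729 to 0.740%, and tenocytes of 3.5 dpi replicate D were lowest at 0.691%, with the others at 0.770 to 0.778%.

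The time course differed from that of endothelial cells of the same samples in smooth muscle cells (adjusted p = 0.0064), myogenic cells (0.0209), myeloid cells (0.0016) and lymphocytes (0.0305; permutation test of the F statistic, n = 21). Lymphocytes at 1 dpi include the far sample above.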

How the results depend on the processing

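Leaving out 1 sample at a time, the permutation p of the all-cell time course ranged from 0.0185 to 0.134 (under 0.05 without 1 dpi A, 5 dpi C or 7 dpi C) and that of equally weighted classes from 0.0536 to 0.299. The number of types with a called time course ranged from 7 to 12, higher in injured muscle from 0 to 2, lower from 0 to 2, higher than other cells from 10 to 11, lower than other cells from 2 to 3, state pairs from 5 to 7, class courses from 2 to 5 (2 without 3.5 dpi D), and time points and correlations were 0 to 0. Types called higher after injury were 0 without uninjured A, B or C and 1 without uninjured D; without A, B or C, B cells and MuSCs had too few uninjured samples to test. The number higher after injury was 1 with the pooled share, with at least 5 or 20 cells, with BBKNN labels and without the 2 samples over 100000 reads per cell, 0 with the stricter filter, and 4 without the 3 low libraries. The number lower was 0 with the stricter filter, 4 with at least 5 cells or Scanorama labels, and 1 with at least 20 cells, BBKNN labels or the replicate block. Called time courses were 5 with the stricter filter or BBKNN labels, and state pairs 2 with the stricter filter. Types higher than other cells were 7 with Scanorama labels and 6 against the mean of other types; types lower were 4 with BBKNN labels and 7 against that mean. The time course of equally weighted classes had a permutation p of 0.0234 with the stricter filter, 0.0230 with the replicate block, 0.00382 in non-immune cells and 0.0419 without the 3 low libraries, and that of all cells 0.000200 and 0.00239 in the last 2. Signs turned for stem FAPs against other cells (-0.0274 with the mean over cells, -0.0162 pooled, -0.0604 against the mean of other types), inflammatory monocytes (-0.0644 against that mean), type IIx myonuclei (-0.0672, stricter filter), smooth muscle cells (-0.0159) and patrolling monocytes (0.0481, both Scanorama labels), arterial cells after injury (-0.122, pooled), and FAPs and tenocytes at 3.5 dpi (-0.0750 with the mean, -0.0707 pooled, -0.0379 with the stricter filter). Under the stricter filter the time courses of B cells, MuSCs, type IIx myonuclei, venous and capillary endothelial cells were lost; the causes were not tested.

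Over the 48 same-letter pairs as a whole, the median correlation of deviations was -0.0081 (range -0.556 to 0.682), with 18 over 0.1. Over 135 pairs of unlike letters it was -0.0312, with 49 over 0.1. At 2, 5 and 7 dpi, however, the letters shared an order. A was highest in 13 of 20, 19 of 21 and 15 of 23 types, and C lowest in 15, 20 and 21 of them. The paper states that several time points were collected together. The labels tie no letter to a day, so whether letters pair samples is not settled. With the letter as a block, B cells missed the threshold in the time course (adjusted p = 0.0609, permutation test) and after injury (adjusted p = 0.0508).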

Other observations

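The 3897 cells without a Harmony label had a median heat shock share of 0.772% ± 0.161 at 1 dpi (SD, n = 4), 0.616% ± 0.0905 at 2 dpi (n = 3), 0.515% ± 0.0193 at 3.5 dpi (n = 4), 0.658% ± 0.128 at 5 dpi (n = 3) and 0.785% ± 0.240 at 7 dpi (n = 3). Across cells within 1 type and 1 sample (277 sets of at least 50 cells), Spearman's rho of the heat shock share had a median of 0.118 with UMIs per cell, -0.159 with the mitochondrial share and 0.308 with the transcription factor share. These are descriptions across cells that share a library and a denominator.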
